A study of Mus musculus with 6 samples.

Results

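The genes described here encode laminin chains, the nidogens and dystroglycan that bind laminin, and the integrin subunits that carry cells on it. They were chosen by symbol, as every gene named as a laminin alpha, beta or gamma chain, an integrin alpha or beta subunit, Nid1, Nid2 or Dag1 that had at least 10 raw counts in 3 or more of 6 cultures. Of 35976 genes in each count table, 40 carried such a symbol and 38 met the minimum: 11 laminin chains, 2 nidogens, Dag1, 16 integrin alpha subunits and 8 integrin beta subunits. Itgad, with 0 to 6 counts per culture, and Itgae, with 5 to 34, were left out. The RNA came from cultured sensory neurons of the dorsal root ganglia (DRG), beside the spinal cord, taken from the lumbar ganglia of wild-type C57BL/6 mice of both sexes at 2 to 3 months of age. Dissociated cells were grown for 24 h on glass coated with poly-D-lysine and laminin in medium with fetal bovine serum, and then for a further 24 h with vehicle (3 cultures) or with HC-HA/PTX3 at 15 µg/mL (3 cultures). HC-HA/PTX3 is a matrix complex of hyaluronan, heavy chains of inter-alpha-inhibitor and pentraxin 3 that is purified from human amniotic membrane. The tables held 42516054, 42617496 and 54117547 counts for vehicle replicates 1, 2 and 3, and 37998071, 37434266 and 38420247 for HC-HA/PTX3 replicates 1, 2 and 3. Levels are given in CPM, counts relative to the library total after TMM scaling (edgeR's adjustment of library size), and 1 CPM stood for 37.1 to 56 counts.

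Laminins are secreted trimers of an alpha, a beta and a gamma chain, and they polymerise into the sheet that starts a basement membrane, where nidogens tie them to type IV collagen and other components. Cells hold this sheet through dystroglycan and through integrins, heterodimers of an alpha subunit, which sets most of the choice of ligand, and a beta subunit, which links to the actin cytoskeleton. In peripheral nerve and ganglia, Schwann and satellite glial cells lay down laminin around axons and cell bodies, and neurites of sensory neurons grow on laminin by means of beta1 integrins.

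Levels of different genes were compared per kilobase of the longest annotated transcript, in the vehicle cultures. Among laminin alpha chains, Lama4, found around nerve, vessels and fat, was the most abundant, at 42.3 ± 17.1 CPM per kilobase (SD, n = 3). Lama2, the alpha chain of the muscle and Schwann cell basement membrane, followed at 13.8 ± 6.57 and Lama5, the broad epithelial and vascular chain, at 3.16 ± 1.43 CPM per kilobase. This order of the 3 chains held in each of the 3 cultures, with no overlap of neighbouring ranges, whereas the ranges of Lama1 (0.635 ± 0.337) and Lama3 (0.398 ± 0.0427 CPM per kilobase) overlapped. Lamb1 stood at 59.4 ± 20.1 and Lamc1 at 64.7 ± 25.5 CPM per kilobase, so the beta and gamma chains were led by a single gene each. Lamb2, the beta chain of synaptic and kidney basement membranes, was lower at 8.07 ± 2.49 CPM per kilobase. Lamb3, a chain of skin basement membrane, stood at 0.303 CPM per kilobase, and Lamc3 at 0.505. Nid1 reached 59.3 ± 20.5, Nid2 11.3 ± 4.84 and Dag1 87.7 ± 46.2 CPM per kilobase.

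Among the receptors, Itgb1, the common partner of most alpha subunits, was the most abundant of the 38 genes, at 292 ± 47.8 CPM per kilobase in the vehicle cultures. Itga7, a laminin-binding subunit, ranked next at 131 ± 22.9 CPM per kilobase, ahead of Itgav (40.8 ± 13.1), Itga6 (40.3 ± 12.3) and Itga3 (26.9 ± 0.617). Itga7 exceeded every other alpha subunit in each vehicle culture, but the ranges of Itgav, Itga6 and Itga3 overlapped. Itga5, the fibronectin receptor subunit, was at 19.4 ± 7.53 CPM per kilobase, and the remaining alpha subunits lay between 4.43 (Itga1) and 0.242 (Itgax). Of the other beta subunits, Itgb8 stood at 25.3 ± 15.8, Itgb3 at 11.0 ± 1.67, Itgb5 at 9.22 ± 2.89 and Itgb4 at 6.42 ± 4.06 CPM per kilobase, each overlapping its neighbour in that order. Itgb2, the leukocyte beta subunit, was at 1.75 ± 0.309, and Itgb6 and Itgb7 were at 0.424 and 0.407 CPM per kilobase. When the union of annotated exons was taken as the length, the level of Itga7 was 65.1, that of Lama4 21.2 and that of Lamb1 34.7 CPM per kilobase. Each stayed the highest of its class, but Itga7 was then below Dag1 (78.1 CPM per kilobase), and within classes Itga3 and Itga6, Itga10 and Itgal, and Itgb6 and Itgb7 changed places.

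**Figure D1:**
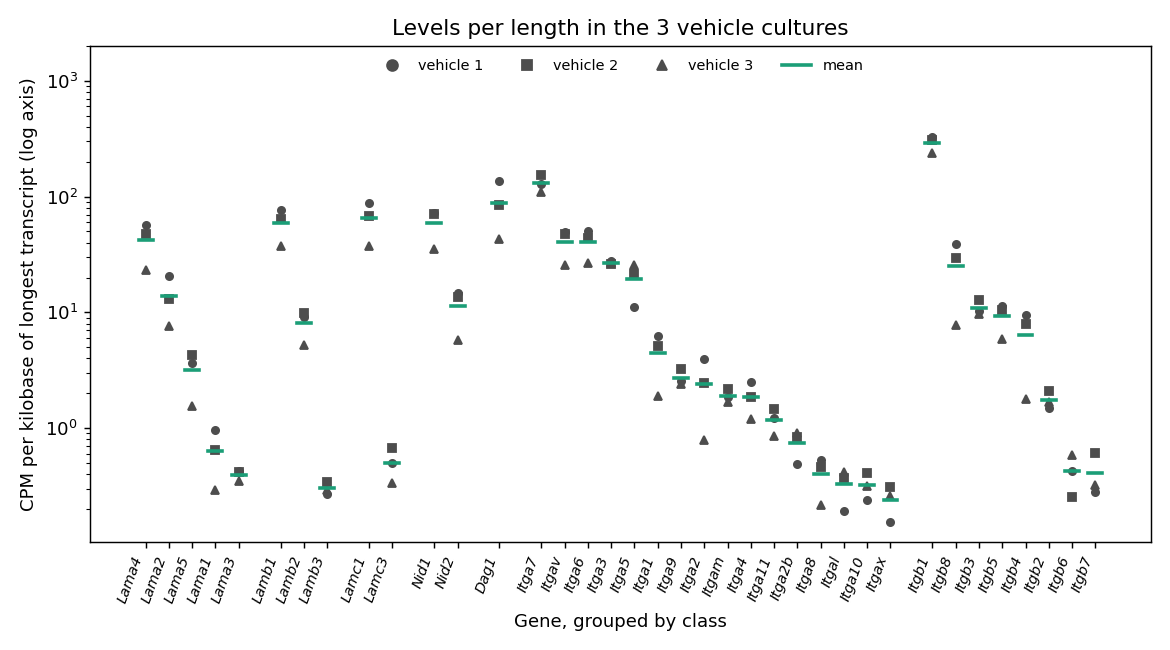
Level in CPM per kilobase of the longest transcript (vertical log axis) of 37 of the 38 genes (horizontal axis, by class) in the 3 vehicle cultures, with symbols for cultures and a green bar for the mean of 3. Itgb1 (292) and Itga7 (131) stand highest, and Lama4, Lamb1 and Lamc1 lead the laminin alpha, beta and gamma chains.

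The cultures differed more by replicate number than by treatment. Of the variance of log2 CPM over the 6 cultures, the replicate number held a median of 83.4% over the 38 genes and the treatment 12.6%, against 59% and 17.7% over the 18277 genes tested. These shares of the sum of squares were not adjusted for the 3 replicate numbers against 2 groups, which favours the replicate number. Replicate 3 was the lowest of its group in both groups for 25 of the 38 genes, against 5100 of the 18277. The 14 laminin, nidogen and dystroglycan genes had a median log2 difference of -1.13 between replicates 3 and 1 of the vehicle group, and the 24 integrin subunits had one of -0.18, where all genes tested had -0.02. Summed per kilobase, the laminin alpha chains stood at 82.4, 65.4 and 33.1 in vehicle replicates 1, 2 and 3, and at 65.6, 51.8 and 22.5 in the HC-HA/PTX3 replicates. The 16 integrin alpha subunits summed to 286, 313 and 226 CPM per kilobase with vehicle and to 300, 297 and 224 with HC-HA/PTX3. Satellite glial markers followed the same order as the laminins: the 9 listed genes summed to 2387, 1457 and 552.5 CPM in the vehicle cultures and to 2238, 1468 and 569.7 CPM under HC-HA/PTX3, with Apoe the highest in CPM. The 10 Schwann cell and myelin markers summed to 1591, 1147 and 881.6 CPM and to 1406, 970.4 and 822.4 CPM. In bulk samples, fewer cells of a type and less RNA per cell cannot be told apart. Neuronal markers, 15 genes led by Nefl, summed to 11870, 9797 and 10640 CPM with vehicle and to 12310, 10330 and 12020 CPM under HC-HA/PTX3, so the labelled cell type was present in every culture beside other cells. The part of these cells in the order of the cultures was not tested.

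The treatment was therefore compared within same-numbered pairs, by edgeR's quasi-likelihood test with the replicate number as a block. A gene was called at a Benjamini-Hochberg adjusted p under 0.05 together with a log2 fold change beyond 0.5 in size, which took 8.7% of all genes tested in either direction and 5.38% in the lower direction. All 38 members passed the low-count filter. Of these, 5 were called, and each of them fell with HC-HA/PTX3: Lama1, Lama2, Lamc1, Nid2 and Itga4. By class this was 4 of the 14 laminin, nidogen and dystroglycan genes and 1 of the 24 integrin subunits, the latter close to the share among all genes. At an adjusted p under 0.05 with no limit on fold, 14 of the 38 were lower, where 11.5% of all genes were, and 0 were higher, where 7.67% were. Of the 14, 9 were laminin, nidogen or dystroglycan genes and 5 were integrin subunits. No member was called higher by edgeR, DESeq2 or limma-voom with the same terms, although some, such as Itga3 and Itga7, were higher at an unadjusted p under 0.05 in edgeR (0.016 and 0.0307). The median log2 fold change was -0.29 over the 11 laminin chains, -0.15 over the integrin alpha subunits and 0.06 over the integrin beta subunits, and -0.01 over all genes tested (without pair 1 the alpha subunits had -0.089). In all 3 pairs, 16 of the 38 genes were lower (28.7% of all genes) and 7 were higher (25.2%). The 2 groups overlapped in every one of the 38, whereas 18% of all genes had groups that did not overlap.

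Without the block, edgeR called 0% of all genes, and 11.4% had an unadjusted p under 0.05 in either direction. Among the 38 genes, 0 were called and 0 had an unadjusted p under 0.05 in that fit. Its smallest p among them was 0.0968 (Itga3), with an adjusted p of 0.527. The calls thus rest on differences within pairs, and with pair 3 left out of the blocked fit Lama1 alone was called, while Lama2, Nid1 and Nid2 were called without pair 1 and Itga4, Itgb3, Lama2, Lamc1 and Nid2 without pair 2. Of all genes, 4.74% were called without pair 1, 8.5% without pair 2 and 6.88% without pair 3. Tested against the fold limit itself (edgeR's glmTreat), 0 of the 38 passed, near the 1.61% of all genes, and 1 had an unadjusted p under 0.05, as did 6.54% of all genes. The p-values measure only the spread between these samples, since the labels do not say that the cultures came from separate animals.

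**Figure D2:**
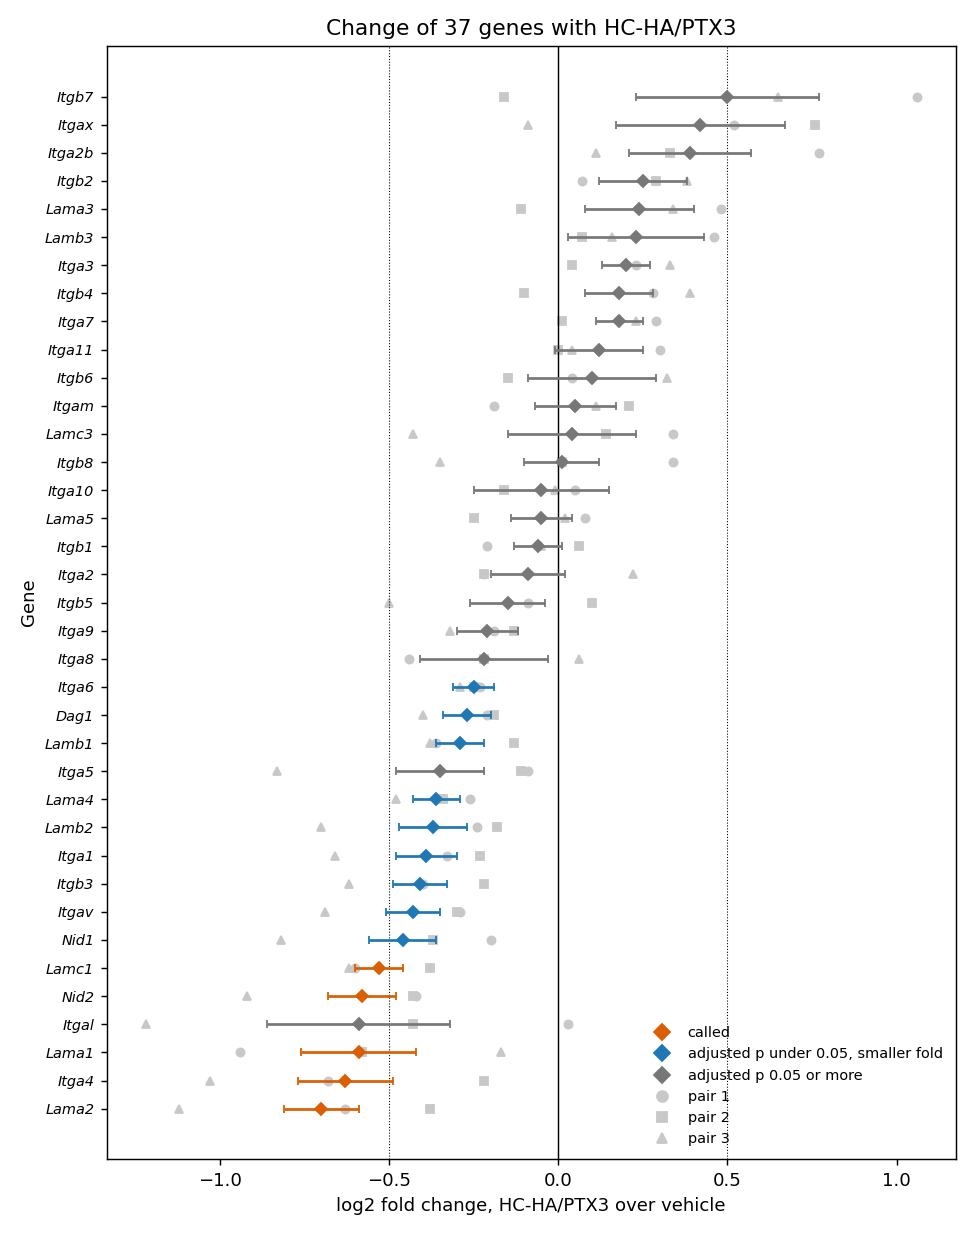
Log2 fold change of HC-HA/PTX3 over vehicle (horizontal axis) for 37 of the 38 genes (vertical axis), as the blocked estimate with its standard error (diamonds and bars) and as the ratio within each of the 3 pairs (grey symbols). The 5 called genes (orange) lie beyond the dotted line at -0.5, and Lama2 has the lowest estimate, at -0.70.

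Lamc1, the gamma chain shared by most laminins, was the most abundant laminin gene in CPM. Per kilobase of the longest transcript Lamc1 led in the vehicle cultures only, and Lamb1 was above it under HC-HA/PTX3 (means of 49.0 and 45.0). By the union of exons Lamc1 led in the treated cultures too, at 154, 140 and 136% of Lamb1 in replicates 1, 2 and 3. In CPM, Lamc1 was as follows. Its level was 674, 517 and 288 CPM in vehicle replicates 1, 2 and 3 (26993, 22189 and 16152 counts), and 445, 396 and 188 CPM in the HC-HA/PTX3 replicates (16498, 14996 and 7398 counts). Each treated culture was below the vehicle culture of its number, while treated replicates 1 and 2 stayed above vehicle replicate 3. The log2 fold change was -0.53 (SE 0.07), a level 0.69 times that of vehicle, with an adjusted p of 0.00112 in edgeR's test. Leaving out pair 1 or pair 3 gave -0.50 and -0.48, under the fold limit at adjusted p-values of 0.0111 and 0.000902 in the same test. Lamc3, a scarcer gamma chain, was not called, at 2.96 ± 1.01 CPM with vehicle and 3.19 ± 1.54 CPM under HC-HA/PTX3 (SD, n = 3 cultures each).

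Lama2, mutated in merosin-deficient muscular dystrophy with a neuropathy of myelinated nerve, had the largest fall of the 38 genes in the blocked fit of all 3 pairs, while Lama1 was lower than Lama2 without the block (-0.67 and -0.62) and without pair 3 (-0.75 and -0.49). It stood at 199, 125 and 73.4 CPM in vehicle replicates 1, 2 and 3 (7950, 5361 and 4110 counts) and at 128, 96.1 and 33.8 CPM under HC-HA/PTX3 (4756, 3643 and 1333 counts). Replicate 3 was lowest in both groups and had the widest gap within its pair, at -1.12 on the log2 scale, against -0.63 and -0.38 in pairs 1 and 2. The blocked log2 fold change was -0.70 (SE 0.11; edgeR's adjusted p = 0.00278), and without pair 3 it was -0.49 (adjusted p = 0.00111). Lama1, the alpha chain of early embryonic and some adult basement membranes, was scarce. Its level was 9.21, 6.15 and 2.80 CPM in the vehicle cultures (369, 264 and 157 counts) and 4.80, 4.09 and 2.49 CPM in the treated ones (178, 155 and 98 counts). Here the gap was widest in pair 1 and narrow in pair 3, and the groups overlapped. The log2 fold change of -0.59 (SE 0.17) had an adjusted p of 0.0337 in edgeR's test, but 0.293 without pair 1 and 0.127 without pair 2.

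Lama4, the leading alpha chain, passed on adjusted p and not on fold. It was measured at 342, 285 and 141 CPM with vehicle (13687, 12224 and 7877 counts) and at 286, 226 and 101 CPM under HC-HA/PTX3 (10624, 8549 and 3977 counts). All pairs had the treated culture lower, by a fitted -0.36 (SE 0.07; adjusted p = 0.00522 in edgeR's test). Lamb1, the leading beta chain, was at 444, 371 and 216 CPM (17771, 15932 and 12100 counts) against 346, 339 and 166 CPM (12852, 12861 and 6540 counts). Its treated cultures were each lower than their pair, with replicate 3 lowest in both groups and the groups overlapping. The fitted difference was -0.29 (SE 0.07; edgeR's adjusted p = 0.0168), and that of Lamb2 was -0.37 (SE 0.10; adjusted p = 0.0308 in edgeR's test). Lama5, at 36.1 ± 16.3 CPM with vehicle and 34.4 ± 14.3 CPM under HC-HA/PTX3, had a log2 fold change of -0.05 (SE 0.09), and the scarce Lama3 and Lamb3 were at 4.19 ± 0.45 and 1.48 ± 0.181 CPM with vehicle and at 5.01 ± 1.16 and 1.73 ± 0.12 CPM under HC-HA/PTX3.

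**Figure D3:**
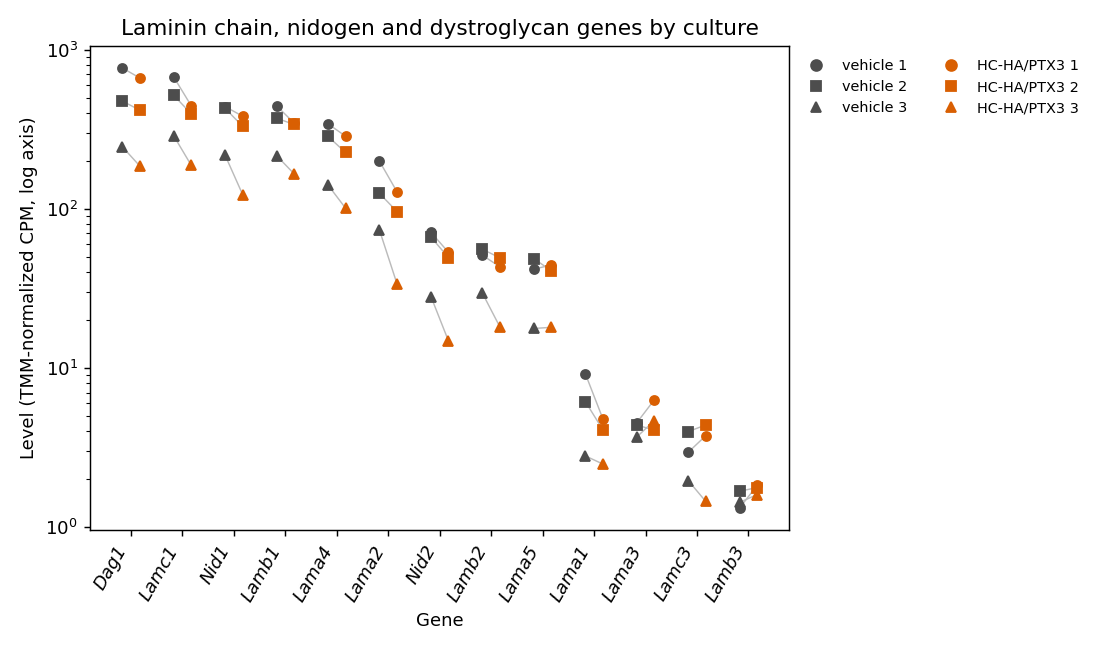
Level in TMM-normalized CPM (vertical log axis) of 10 of the 11 laminin chains, 2 nidogens and Dag1 (horizontal axis) in each culture, grey for vehicle and orange for HC-HA/PTX3, with a symbol for each replicate number and a line joining each pair. Replicate 3 (triangles) lies lowest for the abundant genes, such as Lamc1 at 288 and 188 CPM, and most lines from vehicle to HC-HA/PTX3 run downward among them.

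The nidogens followed the laminins. Nid2 was at 71.2, 66.4 and 28.1 CPM in vehicle replicates 1, 2 and 3 (2853, 2853 and 1571 counts) and at 53.3, 49.4 and 14.8 CPM in the HC-HA/PTX3 replicates (1978, 1873 and 584 counts). Replicate 3 stood well apart in both groups, so that treated replicates 1 and 2 lay above vehicle replicate 3. Nid2 fell by 0.58 on the log2 scale (SE 0.10; edgeR's adjusted p = 0.00401), and without pair 3 the log2 fold change was -0.41 (adjusted p = 0.00697). Nid1 was at 439, 428 and 217 CPM (17564, 18370 and 12135 counts) against 382, 330 and 123 CPM (14194, 12518 and 4840 counts), again with the widest gap in pair 3. Its fitted -0.46 (SE 0.10; adjusted p = 0.0115 in edgeR's test) was under the fold limit, but without pair 1 Nid1 was called at -0.59 (adjusted p = 0.0139). Dag1, whose product is split into the laminin-binding alpha and the membrane-spanning beta dystroglycan, was at 768, 476 and 246 CPM with vehicle (30760, 20465 and 13785 counts) and at 665, 417 and 186 CPM under HC-HA/PTX3 (24677, 15816 and 7326 counts). Its replicates differed more than its groups, and 96.2% of its variance lay between replicate numbers. The log2 fold change of Dag1 was -0.27 (SE 0.07; edgeR's adjusted p = 0.0206).

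The integrin alpha subunits divide by ligand. Those that bind laminin, Itga3, Itga6 and Itga7, did not move together. Itga7 was at 516, 624 and 441 CPM in the vehicle cultures (20662, 26786 and 24705 counts) and at 630, 630 and 517 CPM in the treated ones (23364, 23878 and 20358 counts). No treated culture was below its pair, but pair 2 was level and the groups overlapped, and the log2 fold change of 0.18 (SE 0.07) had an adjusted p of 0.109 in edgeR's test. Itga3 was at 131 ± 3.17 CPM with vehicle and 151 ± 17.1 CPM under HC-HA/PTX3 (SD, n = 3 each; log2 fold change 0.20, SE 0.07, edgeR's adjusted p = 0.0702). Itga6, the partner of Itgb1 and, in hemidesmosomes, of Itgb4, went the other way, at 174 ± 53 and 146 ± 47.1 CPM, with -0.25 (SE 0.06; adjusted p = 0.0149 in edgeR's test) and every pair lower.

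Among the collagen-binding subunits, Itga1 was at 48.6 ± 24.7 CPM with vehicle and 38.6 ± 22.2 CPM under HC-HA/PTX3, lower in all 3 pairs at -0.39 (SE 0.09; edgeR's adjusted p = 0.0138). Itga2 (17.1 ± 11.3 and 15.2 ± 8.88 CPM), Itga10 (1.62 ± 0.437 and 1.55 ± 0.304 CPM) and Itga11 (5.88 ± 1.51 and 6.41 ± 1.75 CPM) had log2 fold changes from -0.09 to 0.12 and passed neither threshold. Of the subunits that recognise the RGD tripeptide of fibronectin and vitronectin, Itgav had the smallest p among all alpha subunits. Its level was 349, 333 and 182 CPM with vehicle (13962, 14302 and 10211 counts) and 286, 269 and 113 CPM under HC-HA/PTX3 (10601, 10215 and 4446 counts). Treated replicates 1 and 2 were above vehicle replicate 3, and within pairs the treated culture was lower each time. Itgav stood at -0.43 (SE 0.08; adjusted p = 0.00679 in edgeR's test), short of the fold limit. Itga5, at 85.5 ± 33.1 and 65.6 ± 20.4 CPM, was highest in vehicle replicate 3, and its -0.35 (SE 0.13) had an adjusted p of 0.0794 in edgeR's test. Itga8 (2.35 ± 0.958 and 1.96 ± 0.554 CPM) and Itga2b, the platelet subunit (2.55 ± 0.767 and 3.28 ± 0.37 CPM), were scarce and were not called.

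Itga4, whose product pairs with beta1 or beta7 and binds VCAM1 and fibronectin rather than laminin, was the integrin gene that was called. It was measured at 24.7, 18.3 and 11.8 CPM in vehicle replicates 1, 2 and 3 (990, 786 and 661 counts) and at 15.4, 15.7 and 5.74 CPM in the HC-HA/PTX3 replicates (571, 595 and 226 counts). The treated culture was lower in each pair, least so in pair 2, and treated replicates 1 and 2 lay above vehicle replicate 3. Itga4 fell by 0.63 on the log2 scale (SE 0.14; edgeR's adjusted p = 0.0123). Without pair 1 the log2 fold change was -0.61 with an adjusted p of 0.0915 in the same test, and without pair 3 it was -0.44 (0.0358), so the call needed both pairs. Exons of Itga4 share 8.04% of their bases with Cerkl on the other strand, as those of Nid2 share 8.45% with Rtraf and those of Lama2 3.86% with Gm48084, and the strand setting of the counting is not given in the sources used here. Itga9, the closest relative of Itga4 and a receptor for tenascin, was at 19.2 ± 3.15 and 16.7 ± 3.77 CPM (-0.21, SE 0.09). The leukocyte subunits Itgal (1.71 ± 0.629 and 1.12 ± 0.269 CPM), Itgam (8.93 ± 1.12 and 9.32 ± 2.17 CPM) and Itgax (0.978 ± 0.323 and 1.36 ± 0.7 CPM) were low in every culture. With every gene of at least 1 count kept in the fit, Itgal was also called, at -0.61 (adjusted p = 0.0475 in edgeR's test). Itgam shares 68.7% and Itga10 33.5% of its exon bases with another annotated gene on the same strand, so their levels are uncertain.

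The 250 bases before the annotated starts of Itga4 and Lama2 are shown, on build GRCm38.p6 from RefSeq, 5′ to 3′ on the strand of the gene. RefSeq windows were matched for 25 of the 38 genes, and of the 5 called genes for these 2. The Itga4 window is chr2:79255176-79255425 on the plus strand, with 64.0% G and C, and no GENCODE transcript crosses it. The Lama2 window is chr10:27616943-27617192 on the minus strand, with 47.2% G and C; it overlaps no exon and lies inside 1 annotated Lama2 transcript that starts further upstream. Capitals mark the GC box GGGCGG.
Itga4: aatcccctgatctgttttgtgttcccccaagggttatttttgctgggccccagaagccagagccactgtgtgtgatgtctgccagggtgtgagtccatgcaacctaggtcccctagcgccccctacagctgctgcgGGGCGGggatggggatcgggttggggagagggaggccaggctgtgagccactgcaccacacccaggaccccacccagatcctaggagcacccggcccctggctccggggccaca
Lama2: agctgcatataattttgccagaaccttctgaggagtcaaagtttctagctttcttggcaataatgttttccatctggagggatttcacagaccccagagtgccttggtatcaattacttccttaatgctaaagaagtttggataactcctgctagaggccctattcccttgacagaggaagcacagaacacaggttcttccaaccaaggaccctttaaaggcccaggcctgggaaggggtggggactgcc
Searched on both strands were the TATA box TATAAA, the GC box GGGCGG, the CCAAT box CCAAT, the AP-1 motif TGANTCA and the TEAD motif CATTCC. The Itga4 window held the GC box, from -114 to -109 relative to the start, and the Lama2 window held none of the 5. Over 27025 promoters of the same length, 13% held the TATA letters, 32.9% the GC box, 34.5% CCAAT, 6.87% the AP-1 letters and 12.6% the TEAD letters, and of the 25 matched genes 0, 10, 5, 1 and 3 did. A match is a description of the letters only.

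**Figure D4:**
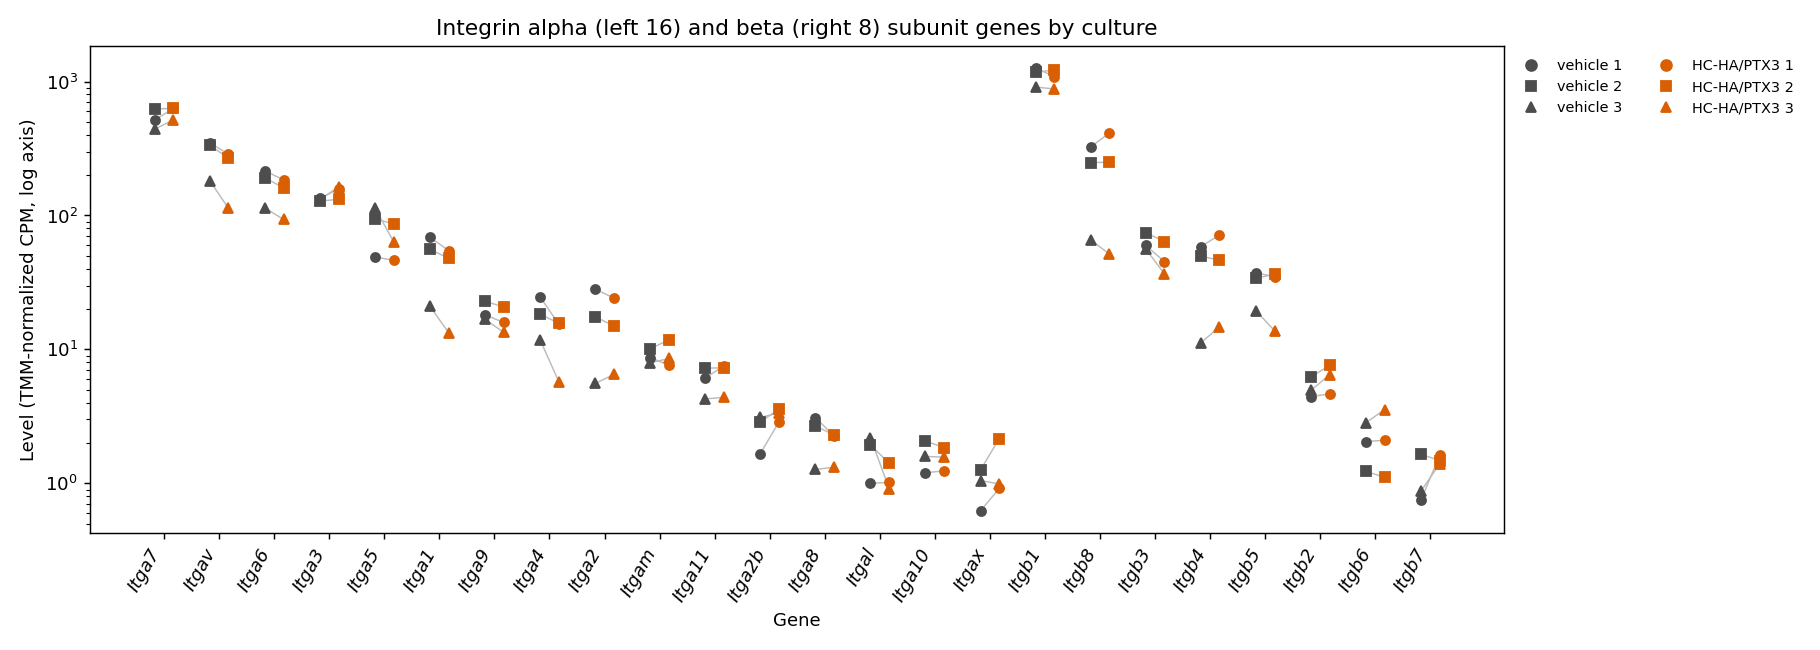
Level in TMM-normalized CPM (vertical log axis) of the 16 integrin alpha subunits and the 8 beta subunits (horizontal axis) in each culture, drawn with the same colours, symbols and pair lines as for the laminins. Itgb1 (909 to 1260 CPM with vehicle) and Itga7 (441 to 624 CPM) stand highest, and the groups overlap for every subunit.

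Among the beta subunits, Itgb1 was at 1260, 1170 and 909 CPM with vehicle (50425, 50260 and 50898 counts) and at 1090, 1220 and 880 CPM under HC-HA/PTX3 (40454, 46360 and 34638 counts). The treated culture was lower in pairs 1 and 3 and higher in pair 2, with a log2 fold change of -0.06 (SE 0.07; edgeR's adjusted p = 0.578). Of the 8 beta subunits, 0 were called by edgeR, DESeq2 or limma-voom with the block, where 8.7, 6.71 and 8.58% of all genes were, so this count is near the share among all genes. Itgb3 alone had an unadjusted p under 0.05 in edgeR. Itgb3, the partner of Itgav and Itga2b, had 59.8, 74.5 and 56.3 CPM in the vehicle cultures (2393, 3199 and 3154 counts) and 45.3, 63.9 and 36.7 CPM in the treated ones (1681, 2421 and 1444 counts). All pairs were lower, yet treated replicate 2 exceeded vehicle replicates 1 and 3. The fitted value was -0.41 (SE 0.08; adjusted p = 0.00815 in edgeR's test), and without pair 2 Itgb3 was called at -0.51 (adjusted p = 0.0194). Itgb8, which with Itgav activates latent TGF-beta, varied most between replicates, at 325, 248 and 65.8 CPM with vehicle and 412, 250 and 51.5 CPM under HC-HA/PTX3, and 98.5% of its variance lay between replicate numbers. Itgb4, the hemidesmosomal subunit also found in Schwann cells, showed the same order, at 58.6, 49.7 and 11.2 CPM against 71.4, 46.4 and 14.7 CPM. Itgb5 was at 30.2 ± 9.46 and 28.4 ± 12.7 CPM, Itgb2 at 5.20 ± 0.912 and 6.24 ± 1.48 CPM, Itgb6 at 2.04 ± 0.803 and 2.25 ± 1.23 CPM, and Itgb7 at 1.09 ± 0.489 and 1.5 ± 0.111 CPM.

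Ratios between members, chosen after their levels were seen, describe how the chains stood to each other in each culture and carry no test. Per kilobase, Lamc1 stood at 115, 106 and 101% of Lamb1 in vehicle replicates 1, 2 and 3 and at 97.7, 88.7 and 86.1% in the HC-HA/PTX3 replicates. All treated values were below all vehicle values, with means of 107 ± 7.03% and 90.8 ± 6.07% (SD, n = 3 each). The size of this ratio depends on the length used: with the union of exons, an alternative chosen after seeing the data for these ratios, the means were 170 ± 11.3% and 143 ± 9.64%. Lama2 made up 25.1, 19.9 and 23.0% of the summed laminin alpha chains with vehicle and 20.3, 19.3 and 15.6% with HC-HA/PTX3, and the groups overlapped. The laminin-binding subunits Itga3, Itga6 and Itga7 made up 71.8, 72.1 and 72.3% of the summed integrin alpha subunits with vehicle and 77.3, 74.6 and 82.3% with HC-HA/PTX3. Those groups did not overlap, and Itga7 alone went from 47.6 ± 2.58% to 54.2 ± 2.91%. The 12 alpha partners of beta1 summed to 86.0, 101 and 93.6% of Itgb1 with vehicle and to 104, 91.5 and 95.6% with HC-HA/PTX3, with overlapping groups. By the union of exons they summed to 59.7 ± 4.95% and 61.2 ± 3.69% of Itgb1, and Itga7 made up 39.4 ± 1.97% and 45.4 ± 1.92% of the alpha subunits (SD, n = 3 each). Whether groups overlapped was the same with either length for the 5 ratios given.

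Other genes of the same system were taken from lists. Of 20 other basement membrane genes, with the highest CPM in Sparc, 5 fell and 0 rose, with a median log2 fold change of -0.38. Over all genes tested, 5.38% were called lower and 3.32% higher, with a median of -0.01. The 5 were Col4a4 (-0.82), a collagen IV chain, Egflam (-0.54), the dystroglycan ligand pikachurin, Fbln1 (-0.87), a fibulin, and Frem1 (-0.65) and Frem2 (-0.61), of the Fraser complex. Their vehicle means were 3.63, 18.6, 3.19, 27.7 and 8.72 CPM in that order. Sparc, at 810 CPM, was not called (-0.37). Without pair 2 or without pair 3, 3 genes of this list were called, where 8.5% and 6.88% of all genes were. The main collagen IV chains Col4a1 and Col4a2 were at -0.38 (SE 0.09) and -0.36 (SE 0.08). Of 26 tested integrin ligands other than laminins, led in CPM by Fn1, 12 fell and 0 rose. That stands against the same 5.38% and 3.32%, with a median of -0.50. At an adjusted p under 0.05 with no limit on fold, 15 were lower and 1 was higher, where 11.5% and 7.67% of all genes were. The 8 called genes of smallest p were Col1a1 (-1.62), Cyr61 (-0.99), Tnc (-0.93), Col1a2 (-1.11), Fn1 (-0.51), Col3a1 (-0.96), Vcam1 (-0.81) and Thbs1 (-0.73). Vcam1 is the cell-surface ligand of the Itga4 product, and it was at 30.3, 14.5 and 21.2 CPM with vehicle and 12.5, 11.2 and 12.4 CPM under HC-HA/PTX3, every treated culture below every vehicle culture. The higher one was Cdh1, E-cadherin, at 118, 78.7 and 114 CPM with vehicle and 154, 120 and 160 CPM under HC-HA/PTX3, with no overlap of the groups. Its log2 fold change of 0.49 (SE 0.07; edgeR's adjusted p = 0.00124) was under the fold limit. DESeq2 called 8 genes of this list, and edgeR without pair 3 also called 8, where 6.71% and 6.88% of all genes were called.

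Within focal adhesions, the plaques that join integrins to actin, 3 of 36 tested genes fell and 1 rose, with a median of -0.22 and the highest CPM in Tln1. Among all genes tested, 5.38% were called lower and 3.32% higher. With no limit on fold, 16 of the 36 were lower and 2 higher at an adjusted p under 0.05 in edgeR's test, where 11.5% and 7.67% of all genes were. In all 3 pairs 23 of the 36 were lower (28.7% of all genes), and 10 had every treated culture below every vehicle culture (8.57% of all genes). Ilk, the integrin-linked kinase, was at 131, 135 and 114 CPM with vehicle and 90.8, 98.3 and 69.8 CPM under HC-HA/PTX3, with no overlap of the groups. Its log2 fold change was -0.56 (SE 0.07; edgeR's adjusted p = 0.000938), and Tns2, a tensin, and Kank2 fell by 0.69 and 0.52. Itgb1bp1, whose product ICAP-1 binds the beta1 tail and holds the integrin inactive, rose, from 20.9, 19.6 and 19.4 CPM to 33.7, 29.3 and 28.8 CPM (log2 fold change 0.61, SE 0.08, adjusted p = 0.00131 in edgeR's test). Tln1, which activates integrins, was at -0.01 (SE 0.06). Without pair 3 the list held 2 calls, where 6.88% of all genes were called. Of 26 tested dystroglycan partners and glycosylation genes, led by Utrn, 2 fell, among them Sspn (sarcospan, -0.75), with a median of -0.11. That count lies near the 5.38% called lower among all genes. Without pair 1 or pair 3 it was 1, where 4.74% and 6.88% of all genes were called in either direction. With no limit on fold, 5 of the 26 were lower, where 11.5% of all genes were. Of 13 other laminin receptors and tetraspanins, led by Rpsa, 0 were called by edgeR, DESeq2 or limma-voom, near the share among all genes, with a median of 0.01, and 4 had an adjusted p under 0.05 in edgeR's test, 3 lower and 1 higher.

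Markers of other cell types differed by list, beside 5.38% of all genes called lower and 3.32% called higher. Of 9 fibroblast markers, 4 fell, and their sum was 2381, 2292 and 952.1 CPM with vehicle and 1361, 1524 and 342.1 CPM under HC-HA/PTX3, led by Col3a1. These 4 were Col1a1, Col1a2 and Col3a1, which are also in the list of integrin ligands, and Mgp, while Apod stood at 0.06 (SE 0.07), Dcn at -0.09 (SE 0.06), Pdgfra at -0.25 (SE 0.09), Lum at -0.31 (SE 0.15) and Pi16 at -0.23 (SE 0.30). The 3 collagens summed to 1960, 1950 and 782 CPM with vehicle and to 987, 1180 and 210 CPM under HC-HA/PTX3. The other 6 markers summed to 421, 347 and 170 CPM and to 374, 343 and 132 CPM, a much narrower gap in each pair. All 8 markers of proliferating cells fell, with a median of -1.71, and their sum was 798.5, 574.7 and 268.4 CPM with vehicle and 262.5, 282.5 and 42.36 CPM under HC-HA/PTX3, led by Mki67. Treated replicate 3 was far below the other cultures, and treated replicates 1 and 2 were close to vehicle replicate 3. Of 10 Schwann cell and myelin markers, led by Pmp22, 2 fell (Gldn among them, median of the list -0.30). With no limit on fold, 4 of the 10 were lower and 0 higher at an adjusted p under 0.05 in edgeR's test. Of 9 satellite glial markers 0 were called and 5 had an adjusted p under 0.05, 3 lower and 2 higher (median -0.15). Among all genes tested, 11.5% were lower and 7.67% higher at that adjusted p. Of 15 neuronal markers, 2 rose (Tac1 and Mrgprd, median 0.14), and with no limit on fold 3 were higher and 0 lower. In all 3 pairs 8 of the 15 were higher and 0 lower, where 25.2% and 28.7% of all genes were. The part of these cells in the lower laminin, nidogen and Itga4 levels was not tested.

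Markers of blood and vessel cells were summed in the same way, and their calls stand beside 5.38% of all genes called lower and 3.32% called higher. The 10 macrophage markers, led by Cd68, summed to 59.13, 76.88 and 61.83 CPM with vehicle and to 51.35, 70.07 and 40.37 CPM under HC-HA/PTX3, of which 3 fell (C1qa, C1qb and Cd163), and Aif1 and Cd163 were under 1 CPM in the vehicle mean. The 6 neutrophil markers, led by S100a9, summed to 6.917, 11.55 and 7.483 CPM and to 3.88, 7.123 and 7.491 CPM. Mpo and Elane fell, and 4 of the 6 were under 1 CPM in the mean of all cultures. The 10 lymphocyte markers summed to 1.224, 1.21 and 1.214 CPM and to 1.078, 0.9233 and 1.117 CPM, and Cd3g was at 0 in every culture. The 5 platelet markers, led by Pf4, summed to 3.871, 8.519 and 14.63 CPM and to 4.311, 9.47 and 10.46 CPM, with 0 of the 3 tested called by edgeR. Endothelial markers, 7 genes led by Cdh5, summed to 257.5, 275.3 and 310 CPM and to 264, 311.1 and 283.4 CPM, with 0 called and a median of 0.01. Mural cell markers, 7 genes led by Rgs5 over both groups, summed to 508, 612.5 and 452.6 CPM and to 503.4, 582.8 and 305.3 CPM, and Acta2 fell. In the vehicle mean Pdgfrb (150 CPM) was slightly above Rgs5 (148 CPM). Of the leukocyte integrins, Itgb2 was at 4.44 to 6.22 CPM in the vehicle cultures, beside the 59.13 to 76.88 CPM of the summed macrophage markers.

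**Figure D5:**
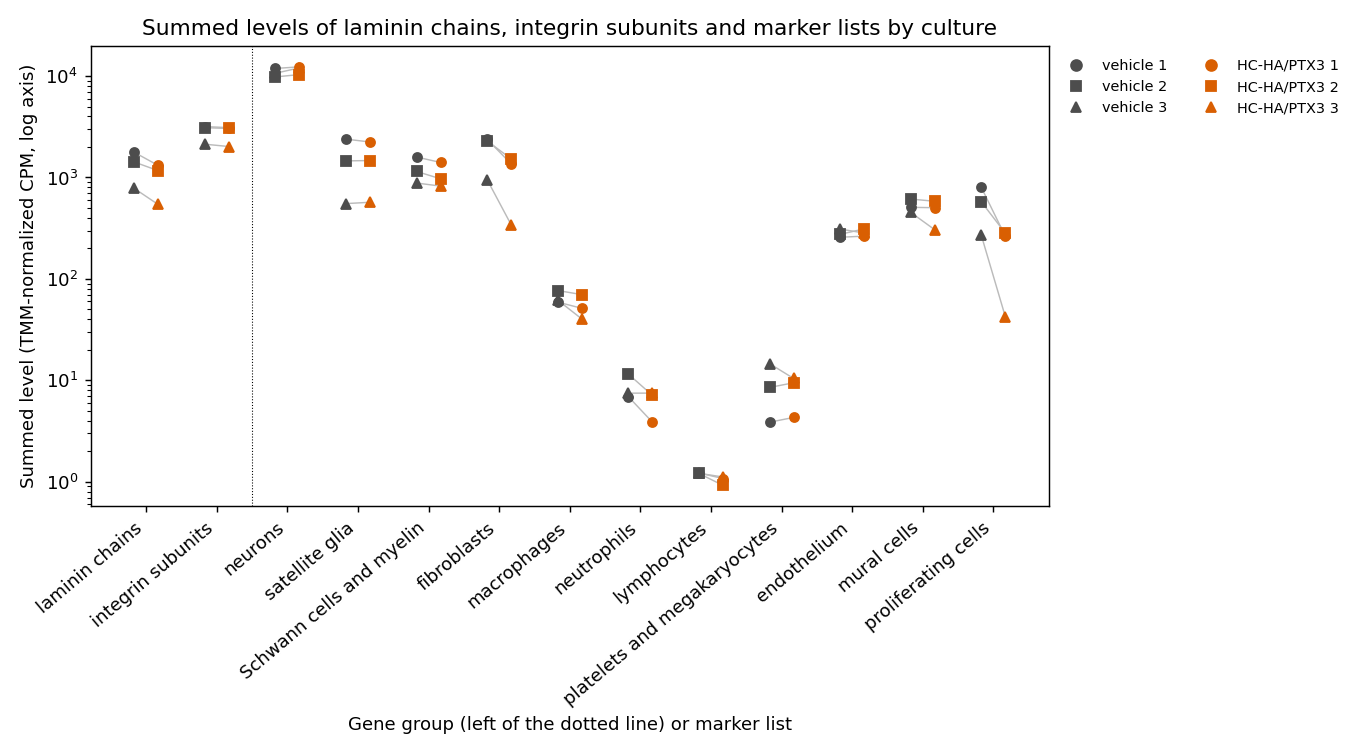
Summed level in TMM-normalized CPM (vertical log axis) of the laminin chains and the integrin subunits, left of the dotted line, and of each marker list, in each culture (grey vehicle, orange HC-HA/PTX3, lines joining pairs). Proliferation markers (268.4 to 798.5 CPM with vehicle, 42.36 to 282.5 CPM under HC-HA/PTX3) and fibroblast markers are lower in each pair, as are the laminin chains, while the integrin sum is nearly level.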

How the data were processed

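Bulk RNA-seq of ribosomal RNA-depleted libraries was analysed from raw counts per gene that the authors deposited for each culture. The submitters' notes and the methods name HISAT2, mm10 and featureCounts (Subread), whereas the table headers name RNA STAR. The strand setting is not given in the sources used here. Groups came from the sample titles. The methods fitted batch and condition in edgeR without listing the batch of each culture, so the replicate number stood in for it. Deviations from the group means correlated at 0.631, 0.536 and 0.774 across genes for same-numbered cultures and at -0.613 to 0.148 for others, so the numbers were treated as pairs. R 4.3.3 was used with edgeR 4.0.16 (TMM, filterByExpr, glmQLFit and glmQLFTest, Benjamini-Hochberg adjustment over the 18277 genes tested). DESeq2 1.42.0, limma 3.58.1 and ComBat-seq of sva 3.50.0 were alternatives, with other filters, scalings and thresholds, no block, and each pair left out. A culture without reads on a gene could hold up to 0.0808 CPM (3 counts, counting error only). Lengths, overlaps and positions came from GENCODE M21 by symbol, for all 38 members. Promoter sequences came from RefSeq (GRCm38.p6). Counts and CPM in every culture were given for called members, Lama1, Dag1, and the most abundant gene and the smallest p of each class. Of other lists, at most the 8 called genes of smallest p were named. Genes shown in addition, Itgb4, Itgb8, Vcam1 and Cdh1 among them, were chosen after their values were seen. The members and lists were chosen with earlier results of these data known. Some genes enter the counts, medians and sums but are not reported singly here.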

Additional observations from a re-analysis of the deposited data

How the results depend on the processing

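The calls depended on the replicate block. With no replicate block, edgeR called 0 genes of the whole table, 0 of the laminin, nidogen and dystroglycan genes, 0 of the integrin subunits, and 0 in the lists of focal adhesion, other basement membrane components, other integrin ligands and dystroglycan partners. The log2 fold changes of the called members were then -0.67 (Lama1), -0.62 (Lama2), -0.57 (Itga4), -0.52 (Lamc1) and -0.50 (Nid2), with medians of -0.28 over the laminin chains and 0.15 over the integrin beta subunits. The 5 called members were also called with at least 10 counts in every culture, with upper-quartile scaling, with raw library sizes, by DESeq2, by limma-voom and after ComBat-seq. With all genes of at least 1 count, 2 integrin subunits were called (Itgal beside Itga4), and the log2 fold change of Itgb8 was -0.0092. Of the 30347 genes in that fit, 1207 were called lower and 799 higher. ComBat-seq then limma called 1 dystroglycan partner, where it called 1096 genes lower and 981 higher of the 18277 tested.

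Without a fold-change threshold, 3505 genes passed in the whole table, 11.5% of all genes tested lower and 7.67% higher. Passing were 9 of the 14 laminin, nidogen and dystroglycan genes, 5 of the 24 integrin subunits and 18 of the 36 focal adhesion genes. Of the other lists, 10 of 20 basement membrane genes, 5 of 26 dystroglycan partners and 4 of 13 other laminin receptors passed. Under glmTreat, which tests against the fold limit itself, 295 genes passed (1.61% of all genes tested), with 3 integrin ligands among them. It passed 0 laminin, nidogen and dystroglycan genes, 0 integrin subunits, 0 focal adhesion genes, 0 basement membrane genes and 0 dystroglycan partners.

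With each pair left out in turn, the whole table gave 878 to 1571 calls, 4.74 to 8.5% of the genes tested. The laminin, nidogen and dystroglycan genes gave 1 to 3 and the integrin subunits 0 to 2. Focal adhesion gave 2 to 6, basement membrane 3 to 4, dystroglycan partners 1 to 2 and other laminin receptors 0 to 1. The median of the integrin alpha subunits ran from -0.13 to -0.089. Members near 0 changed sign: Itga10 from -0.088 to 0.011, Itgam from -0.042 to 0.16, Itgb1 from -0.13 to 0.011, Itgb5 from -0.29 to 0.021, Itgb6 from -0.032 to 0.19, Itgb8 from -0.16 to 0.19, Lama5 from -0.12 to 0.051 and Lamc3 from -0.11 to 0.25. The cause of each shift was not tested. Counts of scarce members such as Itgax and Itgal limit their precision.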
